A study of Mus musculus with 12 samples.

Results

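The genes described here are those of the ATF4 arm of the integrated stress response, together with the serine synthesis and threonine breakdown genes that share its amino acid supply. The 10 members were Atf4, Atf3, Ddit3, Trib3, Chac1, Sesn2, Asns, Psat1, Phgdh and Tdh. A probe set was taken where its symbol in the platform annotation was exactly one of these names, and each gene was read from its brightest probe set by mean log2 signal over all arrays. By this rule 9 of the 10 members had a probe set, among 18193 genes with one, and Tdh is not analysed here. All 9 were bright enough to be tested, as were 12737 genes in all.

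The values came from mouse D3 embryonic stem cells, an established line, cultured for 7 days in medium containing serum. There were 3 arrays for each of 4 conditions. The LIF condition received LIF at 1000 units per ml, the LIF plus lithium condition received LIF and lithium at 50 nM, the LIF-free condition received neither, and the LIF-free plus lithium condition received only lithium. The labels number the arrays 1 to 3 as biological replicates without saying what separated the cultures, so p values measure the spread between these samples. LIF keeps mouse embryonic stem cells self-renewing, and lithium is used as an inhibitor of the kinase GSK3, usually at millimolar rather than nanomolar levels.

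When amino acids run short, the endoplasmic reticulum is stressed or heme is lacking, kinases phosphorylate the initiation factor eIF2. General translation then falls while ATF4 protein is made from an mRNA whose upstream reading frames otherwise hold it back. ATF4 binds, with C/EBP partners, to response elements of genes for amino acid synthesis, transport and tRNA charging, and also switches on CHOP (Ddit3), ATF3 and the inhibitor TRB3 (Trib3). Serine made through PHGDH, PSAT1 and PSPH, and glycine from threonine in mouse embryonic stem cells, feed one-carbon metabolism and nucleotide synthesis. Array signal measures mRNA only, so ATF4 protein was not measured.

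The letters TGATGNAA, the core of the C/EBP-ATF response element, were searched on both strands of the RefSeq promoters (GRCm38.p6), each running from 250 bases before to 50 after a gene's start. Of the 9 members with a promoter in that table, 4 held a match, as did 4.51% of all 27025 genes in it (3.97% of its 32851 promoters). These stretches are shown because they carry the letters that ATF4 is known to bind in genes of this group. They are written 5′ to 3′ on the gene's strand, with the matched letters, or their reverse complement, in capitals.
Atf3: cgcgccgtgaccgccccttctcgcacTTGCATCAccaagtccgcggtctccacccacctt
Chac1: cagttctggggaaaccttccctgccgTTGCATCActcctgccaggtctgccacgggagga
Asns: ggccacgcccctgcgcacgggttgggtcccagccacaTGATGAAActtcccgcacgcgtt
Trib3: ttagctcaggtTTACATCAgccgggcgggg
The Atf3 stretch lies upstream of the start at chr1:191183410-191183469 on the minus strand. The Chac1 stretch lies upstream at chr2:119351023-119351082 on the plus strand. The Asns stretch ends at the base before the start, at chr6:7693210-7693269 on the minus strand. The Trib3 stretch lies just after the start, at chr2:152344028-152344057 on the minus strand. The promoters of Atf4, Ddit3, Sesn2, Psat1 and Phgdh held no match in this window. A match is a description of letters and does not show binding.

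LIF withdrawal lowered most of these transcripts and raised one. Averaged over both lithium states (6 LIF-free against 6 LIF arrays), Psat1, Chac1, Ddit3, Trib3, Atf4 and Asns fell, by 2.81-fold for Psat1 to 1.39-fold for Asns. Atf3 rose 2.82-fold. Sesn2 and Phgdh did not pass the threshold, an adjusted p of 0.05 in limma with Benjamini-Hochberg adjustment over all 27022 probe sets tested. In bulk RNA, fewer cells of a type and less RNA per cell cannot be told apart. Of all tested genes, 13.5% were called lower and 17.4% higher in the same comparison, against 6 and 1 of the 9 members. The members and the related lists below were chosen with earlier results of these data known. Their counts beside these shares are therefore descriptions and no test of enrichment. The median log2 change was -0.59 over the 9 members and 0.03 over all tested genes.

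**Figure D1:**
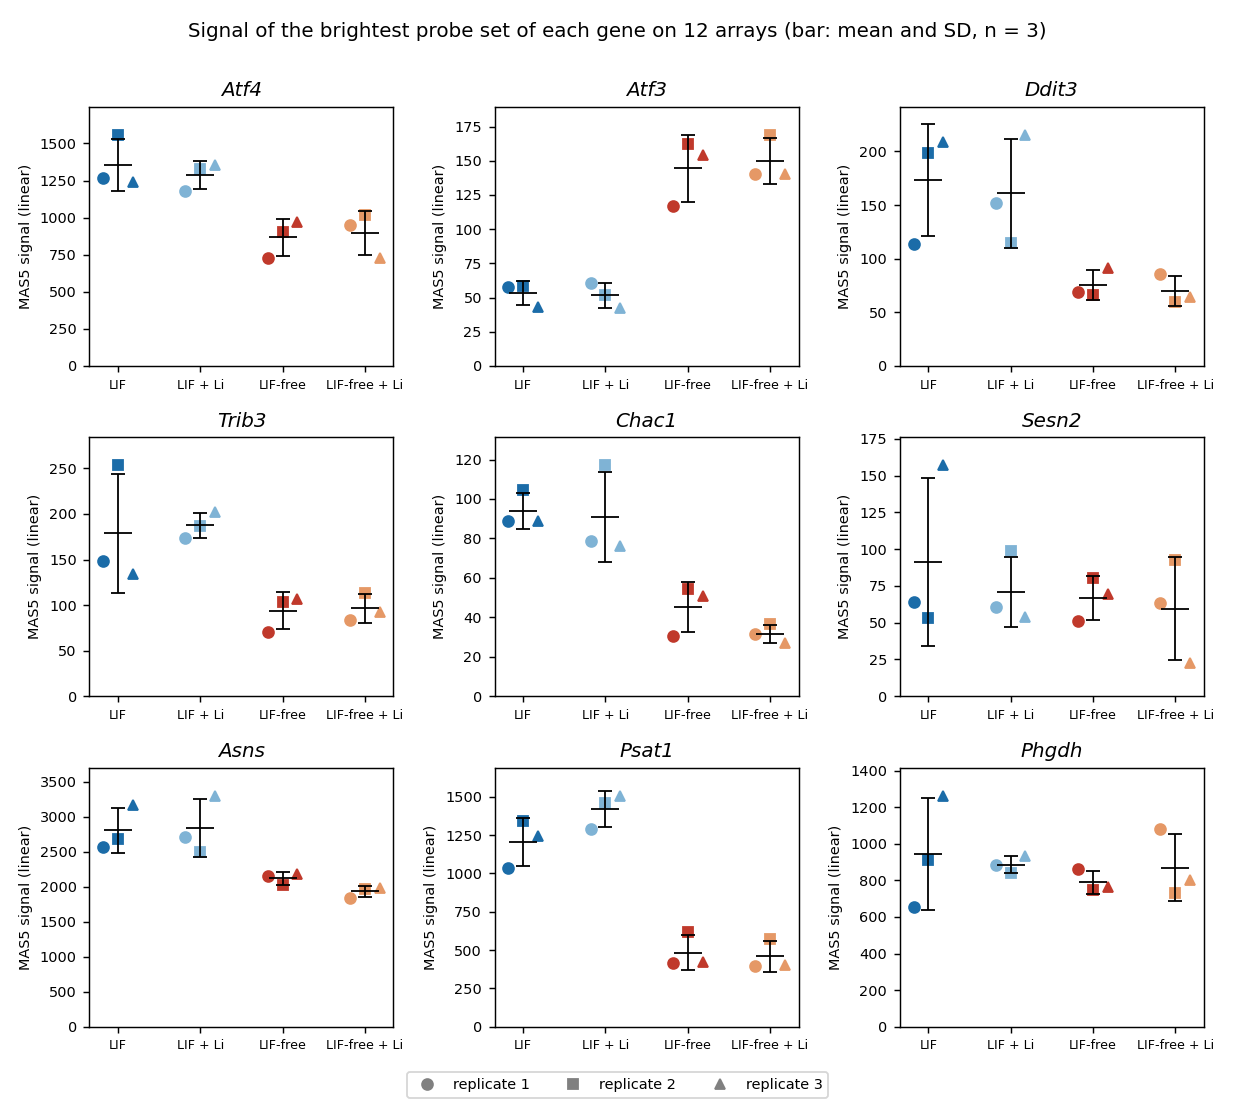
MAS5 signal (linear axis from 0) of the brightest probe set of each gene on the 12 arrays, by condition, with markers for the replicate number and bars for the mean and SD (n = 3). The LIF and LIF-free arrays do not overlap for Psat1, Asns, Atf4, Ddit3, Trib3, Chac1 and Atf3, whereas they do for Sesn2 and Phgdh. Of all tested genes, 7.62% were lower and 10.7% higher without overlap.

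Atf4 encodes the transcription factor at the head of the group. Its signal was 1265, 1559 and 1243 on the LIF arrays and 1182, 1327 and 1352 with LIF plus lithium. It was 729, 905 and 967 on the LIF-free arrays and 949, 1015 and 727 on the LIF-free plus lithium arrays. All 6 LIF arrays lay above all 6 LIF-free arrays, as they did in 7.62% of tested genes, and the average log2 change was -0.59 ± 0.11 (SE, 95% interval -0.83 to -0.35, limma adjusted p = 0.00196). A dimmer probe set of Atf4, of a class open to cross-hybridisation, gave -0.80 (adjusted p = 0.000768), and the remaining one was too dim to be tested.

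Atf3, a bZIP factor induced by many stresses, moved the other way. Its signal was 58, 58.6 and 42.9 on the LIF arrays and 60.7, 52.2 and 42 with LIF plus lithium. Without LIF it was 117, 162 and 155, and with lithium in place of LIF 140, 169 and 140. The lowest LIF-free array stood above the highest LIF array, as in 10.7% of tested genes. The average log2 change was 1.49 ± 0.15 (95% interval 1.17 to 1.81, limma adjusted p = 3.55e-05).

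Ddit3, the pro-apoptotic factor CHOP, is usually induced together with Atf3. Its signal was 113, 199 and 209 on the LIF arrays and 152, 115 and 216 with LIF plus lithium. It was 68.5, 65.7 and 91.7 without LIF and 85.3, 59.3 and 64.5 without LIF but with lithium. The LIF arrays were spread widely but none fell into the LIF-free range, as in 7.62% of tested genes. On average Ddit3 changed by -1.17 ± 0.20 (limma adjusted p = 0.000994). The dimmer Ddit3 probe set, near background, had a change of similar size with a wide error and did not pass (-1.09 ± 0.70, adjusted p = 0.294).

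Trib3, a pseudokinase that ATF4 and CHOP induce and that restrains both, followed Atf4 and Ddit3. Its signal was 148, 253 and 134 on the LIF arrays and 173, 187 and 202 with LIF plus lithium. It was 70.8, 104 and 107 without LIF and 83.4, 114 and 92.3 without LIF but with lithium. Replicate 2 of the LIF condition was the highest of the 12. Over both lithium states Trib3 changed by -0.93 ± 0.17 (limma adjusted p = 0.00179). The brightest probe set is of a class open to cross-hybridisation, and the other Trib3 probe set, which is not, gave -1.28 (adjusted p = 0.000295).

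Chac1 encodes a glutathione-degrading enzyme and is one of the most strongly ATF4-dependent genes. Its signal was 88.8, 105 and 88.8 on the LIF arrays and 78.9, 117 and 76.3 with LIF plus lithium. It was 30.5, 54.4 and 50.8 without LIF and 31.5, 36.5 and 27.2 without LIF but with lithium. No LIF-free array reached the lowest LIF array, as in 7.62% of tested genes. The average log2 change was -1.30 ± 0.18 (95% interval -1.69 to -0.90, limma adjusted p = 0.000294).

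Sesn2, a leucine-binding restraint on mTORC1 that answers to both ATF4 and p53, overlapped between the LIF and LIF-free arrays. Its signal was 63.9, 53 and 157 on the LIF arrays and 60.8, 98.4 and 54 with LIF plus lithium. It was 50.9, 80.4 and 69.5 without LIF and 63.3, 92.3 and 22.9 without LIF but with lithium. Single arrays set the mean of a condition, the highest being LIF replicate 3 and the lowest LIF-free plus lithium replicate 3. The average log2 change was -0.36 with a 95% interval from -1.11 to 0.39 (limma adjusted p = 0.508), so a fall as large as that of Trib3 lay inside the interval. Without LIF replicate 3 the change in the absence of lithium turned from -0.30 to 0.18.

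Among the enzymes, Asns makes asparagine from aspartate and glutamine. Its signal was 2563, 2679 and 3174 on the LIF arrays and 2716, 2493 and 3302 with LIF plus lithium. It was 2148, 2019 and 2189 without LIF and 1844, 1973 and 1986 without LIF but with lithium. The gap between LIF and LIF-free arrays was small, with no overlap, as in 7.62% of tested genes. Averaged, Asns changed by -0.47 ± 0.09 (limma adjusted p = 0.0021). The second probe set, of the class open to cross-hybridisation, gave -0.59 (adjusted p = 0.00131). With each array centred on its median the fall no longer passed (log2 change -0.55, adjusted p = 0.0635).

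Psat1, the aminotransferase of the middle step of serine synthesis, fell furthest. Its signal was 1034, 1340 and 1242 on the LIF arrays and 1288, 1462 and 1508 with LIF plus lithium. It was 413, 615 and 422 without LIF and 398, 575 and 401 without LIF but with lithium. The average log2 change was -1.49 ± 0.13 (95% interval -1.78 to -1.21, limma adjusted p = 2.06e-05), and the second probe set gave -1.52 (adjusted p = 1.78e-05).

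Phgdh, the dehydrogenase that opens the serine pathway, behaved unlike Psat1. Its signal was 655, 913 and 1264 on the LIF arrays and 887, 839 and 935 with LIF plus lithium. It was 861, 746 and 763 without LIF and 1079, 730 and 800 without LIF but with lithium. The conditions overlapped, and the LIF arrays held both the lowest and the highest of the 12 values. The average log2 change was -0.13 (95% interval -0.44 to 0.19, limma adjusted p = 0.591). For the signal of this probe set, the interval excludes a fall as large as that of Psat1. It does not bound the change of Phgdh mRNA itself, for the reason given below. The other 3 probe sets of this symbol gave -0.28, -0.22 and 0.06, and none passed. All 4 are of the cross-hybridising class, and 2 further probe sets that the annotation shares between Phgdh and the gene models Gm8096 or Gm6756 were not used, so signal from near-identical copies cannot be told apart from that of Phgdh. Without LIF replicate 3 the change in the absence of lithium turned from -0.21 to 0.03. With lithium the change was -0.05, and it turned to 0.01 after quantile normalisation.

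**Figure D2:**
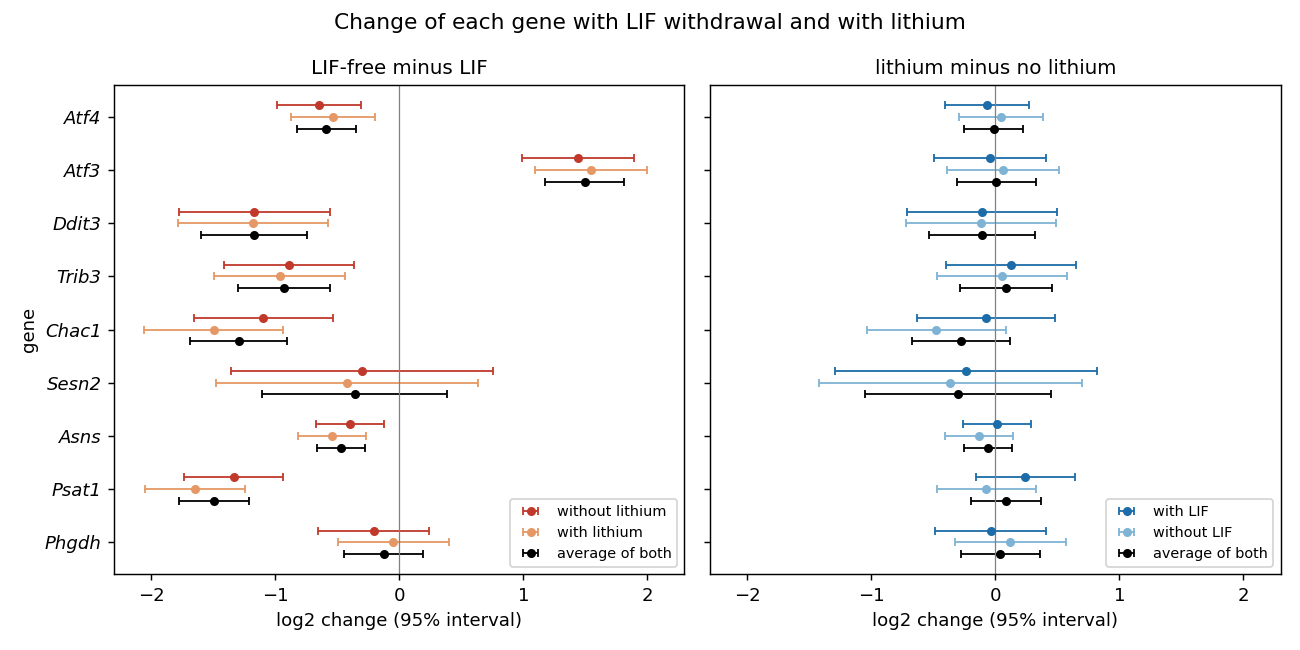
Log2 change of each gene (points) with its 95% interval (bars) for LIF withdrawal on the left and for lithium on the right, each in both states of the other factor and averaged. The 6 falls and the rise of Atf3 on the left contrast with the right panel, where every interval of the averaged lithium effect includes 0.

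The withdrawal effect was also read separately in the cultures without and with lithium, which share no array. These comparisons are not independent, because they come from 1 fit with a shared estimate of the spread. Deviations from condition means also correlated between same-numbered arrays of both lithium states (r from 0.139 to 0.499 with LIF and 0.111 to 0.462 without). Without lithium, 5 members fell (Psat1, Ddit3, Chac1, Trib3 and Atf4) and 1 rose (Atf3), where 5.09% of all tested genes were called lower and 7.47% higher. Asns missed the threshold there (log2 change -0.40, limma adjusted p = 0.0656) and passed once replicate numbers entered the fit as a block (adjusted p = 0.0226). The block raised the background to 10.7% lower and 13.4% higher. When only the compared arrays were fitted, Atf4 (limma adjusted p = 0.0646), Trib3 (0.113) and Chac1 (0.0566) did not pass without lithium. With lithium, 6 members fell, Asns among them (log2 change -0.54, adjusted p = 0.015), and 1 rose, where 6.57% and 9.48% of tested genes were called. Psat1 changed by -1.34 without lithium (adjusted p = 0.00186) and -1.65 with it (adjusted p = 0.00051). Chac1 changed by -1.10 (adjusted p = 0.0198) and -1.50 (adjusted p = 0.00335), and Atf3 by 1.44 (adjusted p = 0.00203) and 1.55 (adjusted p = 0.00109).

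The calls of Psat1 and Atf3 held with any 1 of the 12 arrays left out, in either lithium state. So did that of Chac1 with lithium (highest limma adjusted p = 0.0208). The remaining calls within a single state rested on few arrays. Without lithium, the fall of Atf4 missed the threshold without LIF replicate 2 or LIF-free replicates 1 or 2 (adjusted p from 0.0602 to 0.0981). That of Ddit3 did so without LIF replicates 2 or 3 or LIF-free replicates 1 or 2 (0.0702 to 0.0919). That of Trib3 did so without replicate 2 of LIF or of LIF plus lithium, or any LIF-free array (0.0551 to 0.142). That of Chac1 did so without LIF replicate 2 or LIF-free replicate 1 (0.0768 to 0.0816). Asns passed without LIF replicate 1 (0.0396). With lithium, Atf4 lost its call without LIF plus lithium replicates 2 or 3, LIF-free replicate 2 or any LIF-free plus lithium array (0.0557 to 0.144). Ddit3 did so without LIF plus lithium replicate 3 or LIF-free plus lithium replicate 2 (0.0744 to 0.087). Trib3 did so without LIF plus lithium replicates 2 or 3 or LIF-free plus lithium replicates 1 or 3 (0.0517 to 0.0905), and Asns without LIF plus lithium replicate 3 or LIF-free plus lithium replicates 1 or 2 (0.0507 to 0.0806). In the average over both states, all 7 calls held without any 1 array.

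The scaling between arrays mattered more within a state than in the average. Centring each array on its median shifted the median change over tested genes, in log2 units, from -0.02 to 0.18 without lithium and from 0.07 to -0.28 with it, but only from 0.03 to -0.05 in the average. The share of all calls that were higher went from 58.0% to 83.1% without lithium and from 60.4% to 34.8% with it. Under centring without lithium, Psat1 and Atf3 remained called, while the calls of 4 members ended at somewhat smaller changes. These were Atf4 (-0.45, limma adjusted p = 0.437), Trib3 (-0.70, 0.326), Chac1 (-0.90, 0.154) and Ddit3 (-0.98, 0.131). With lithium, centring ended the calls of Atf4 (-0.88, adjusted p = 0.0768) and Asns (-0.89, 0.0598), although both falls were larger than without it (-0.53 and -0.54). The 7 called members kept their direction under median centring and quantile normalisation in both states and in the average.

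No member passed the threshold for lithium. In limma 0 of 9 passed with LIF, without LIF or on average, and 0 had an unadjusted p under 0.05, and the same held for the interaction of LIF withdrawal and lithium. Over all tested genes 0% were called in each of these comparisons, and 2.36%, 1.19%, 1.03% and 2.17% had an unadjusted p under 0.05. The change nearest the threshold was that of Chac1 without LIF, -0.48 on the log2 scale (95% interval -1.03 to 0.08). Asns was the single member whose values did not overlap in that comparison, lower by a narrow margin (log2 change -0.13, 95% interval -0.40 to 0.14), as were 2.8% of tested genes. The 95% intervals of the averaged lithium effect ran, over the 9 members, from -1.05 to 0.46, the lower end being that of Sesn2 and the upper that of Trib3. The interaction ranged from -0.40 for Chac1 to 0.16 for Phgdh.

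The order of the conditions followed LIF. By condition means, LIF and LIF plus lithium held the upper places and both LIF-free conditions the lower ones in the 6 members that fell and also in Sesn2 and Phgdh, which did not pass and whose arrays overlapped. For Atf3 the order was turned. Within a LIF state, neighbouring conditions did not pass the threshold for any member.

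The rest of the serine and one-carbon pathway was read from a list of related enzymes. Of 19 tested, 6 fell, 1 rose and 12 did not pass in the averaged comparison, with a median log2 change of -0.38. Over all tested genes 13.5% were called lower and 17.4% higher. Psph, the phosphatase that completes serine synthesis, had signals of 434, 429 and 422 with LIF and 449, 508 and 604 with LIF plus lithium. It had 234, 259 and 284 without LIF and 235, 208 and 260 without LIF but with lithium (log2 change -0.94, limma adjusted p = 5.75e-05). The middle and last enzymes of serine synthesis thus fell without overlap, as did 7.62% of tested genes, while Phgdh, which comes first, did not pass. Shmt2, which turns serine into glycine in mitochondria, fell by 1.36 on the log2 scale (adjusted p = 0.000483), with LIF signals of 438, 662 and 1041 and LIF-free signals of 222, 317 and 228. Its cytosolic counterpart Shmt1 fell by 0.58 (adjusted p = 0.000972). Mthfd2, the mitochondrial folate dehydrogenase, fell by 1.32 (adjusted p = 1.92e-05), from 277, 385 and 334 with LIF to 120, 131 and 130 without. Mthfd1l, the mitochondrial formyl-folate synthetase (-0.51, adjusted p = 0.00178), and Gcsh, a carrier of the glycine cleavage system (-0.22, adjusted p = 0.0474), also fell, and the serine racemase Srr rose (0.82, adjusted p = 0.0129). Gldc, the decarboxylase of glycine cleavage, did not pass (-0.39, adjusted p = 0.0759). With the replicate block 12 of the 19 were lower, Gldc among them (adjusted p = 0.0198), beside 18.4% of all tested genes called lower with the block. However, by a cut of 0.1 on correlated deviations the numbers paired LIF with LIF-free arrays (r from 0.137 to 0.438). LIF plus lithium and LIF-free plus lithium arrays had a similar range (0.0972 to 0.451) but missed that cut narrowly, in replicate 2. Mthfd1l did not pass with arrays centred on their medians (adjusted p = 0.0756).

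Cytosolic aminoacyl-tRNA synthetases, many of which carry ATF4 elements, fell in 10 of 19, with 0 rises, 9 not passing and a median of -0.42. The background over all tested genes was 13.5% lower and 17.4% higher. Nars, which charges asparagine tRNA, fell by 0.63 (adjusted p = 9.83e-05), Tars, for threonine, by 0.81 (adjusted p = 0.000475), Eprs, for glutamate and proline, by 0.64 (adjusted p = 0.000777) and Iars, for isoleucine, by 0.47 (adjusted p = 0.00184, and 0.076 after median centring). Of 22 other known ATF4 targets, 8 fell, 2 rose and 12 did not pass (median -0.33), against the same background. Cth, the cystathionine lyase that makes cysteine, had signals of 915, 933 and 943 with LIF and 431, 499 and 411 without (log2 change -1.21, adjusted p = 1.78e-05). Gpt2, a mitochondrial alanine aminotransferase (-1.31, adjusted p = 0.000217), Clgn, an endoplasmic reticulum chaperone of germ cells (-1.29, adjusted p = 0.0001), and again Nars, which both lists hold, fell. The risers were Vldlr, a lipoprotein receptor (1.06), and Tnfrsf10b, a death receptor (0.69).

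Of 16 amino acid transporters tested, 5 fell, 3 rose and 8 did not pass (median 0.03), beside 13.5% of all tested genes called lower and 17.4% higher, so the rises were near the background. The fallers were Slc7a3, a carrier of cationic amino acids (-0.96, limma adjusted p = 0.000868), Slc7a5, the large neutral amino acid carrier (-1.10, adjusted p = 0.00155), Slc1a5, a glutamine carrier (-1.25, adjusted p = 0.00309), Slc7a1 (-0.60, adjusted p = 0.00596) and Slc3a2, the partner subunit of Slc7a5 (-0.60). Slc6a14, Slc36a4 and Slc7a6 rose, and the call of Slc7a6 ended after median centring (adjusted p = 0.253).

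Calls among transcripts of the machinery upstream of ATF4 and of the other stress arms were few and went in both directions. Of all tested genes, 13.5% were called lower and 17.4% higher. Of 14 eIF2 kinases, eIF2B subunits and phosphatase regulators, 1 fell, 4 rose and 9 did not pass (median -0.15). The falls in this list were below the share over all tested genes. Eif2ak3, the endoplasmic reticulum kinase PERK (-0.22, limma adjusted p = 0.251), and Eif2ak4, the amino acid sensor GCN2 (-0.07, adjusted p = 0.782), did not pass, and the phosphatase regulator Ppp1r15a, a target of ATF4 and CHOP, missed the threshold (-0.76, adjusted p = 0.0717). Eif2ak2, the double-stranded RNA kinase PKR, rose (0.75, adjusted p = 0.00243), as did Impact, an inhibitor of GCN2 (0.91, adjusted p = 0.00683), and Eif2b2 (0.37, adjusted p = 0.00596, and 0.331 after median centring), while Eif2b3 fell (-0.52, adjusted p = 0.00243, and 0.0866 after median centring). Among 23 genes of the ATF6 and XBP1 arms, 1 fell, 4 rose and 18 did not pass (median 0.13), so the rises were near the background and the falls below it. The chaperone Hspa5, their usual marker, did not pass (0.22, adjusted p = 0.199). Risers were Derl1 (0.77, adjusted p = 0.00329), Sel1l (0.58, adjusted p = 0.0106), Pdia3 (0.31, adjusted p = 0.0141) and Hyou1 (0.82, adjusted p = 0.0176), parts of protein folding and disposal, and Sdf2l1, a chaperone cofactor, fell (-0.78, adjusted p = 0.0124). The calls of Sel1l (0.115) and Pdia3 (0.489) ended after median centring.

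Among 14 genes for bZIP factors that pair with or resemble ATF4 and for the stress protein Nupr1, 3 fell, 4 rose and 7 did not pass (median 0.23). Of all tested genes, 13.5% were called lower and 17.4% higher. Nupr1, a small stress-induced chromatin protein and ATF4 target, fell by 2.77 (limma adjusted p = 1.36e-05), from 212, 359 and 347 with LIF to 48.6, 37.2 and 56.6 without. Creb3 (1.60, adjusted p = 1.84e-05), Cebpa (1.72, adjusted p = 0.00104), Batf3 (1.96, adjusted p = 0.00146) and Jun (1.65) rose with Atf3. Of 14 paralogues and neighbours of the members, such as Trib1, Trib2, Sesn1 and Sesn3, 2 fell (Asrgl1, an asparaginase, and Ddit4l, an mTORC1 inhibitor), 0 rose and 12 did not pass (median -0.11). The falls in this list were near the share over all tested genes. Asrgl1 changed by -0.68 (adjusted p = 0.00808) and did not pass after median centring (0.0716). Ddit4l changed by -0.65 (adjusted p = 0.0332). Its adjusted p reached 0.086, the highest of 7 such cases, without LIF plus lithium replicate 2. The call was also lost after median centring (0.0777) and without the intensity trend (0.0585). The other 6 arrays whose omission ended it were LIF replicate 2, LIF plus lithium replicate 3, LIF-free replicates 2 and 3, and LIF-free plus lithium replicates 2 and 3.

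**Figure D3:**
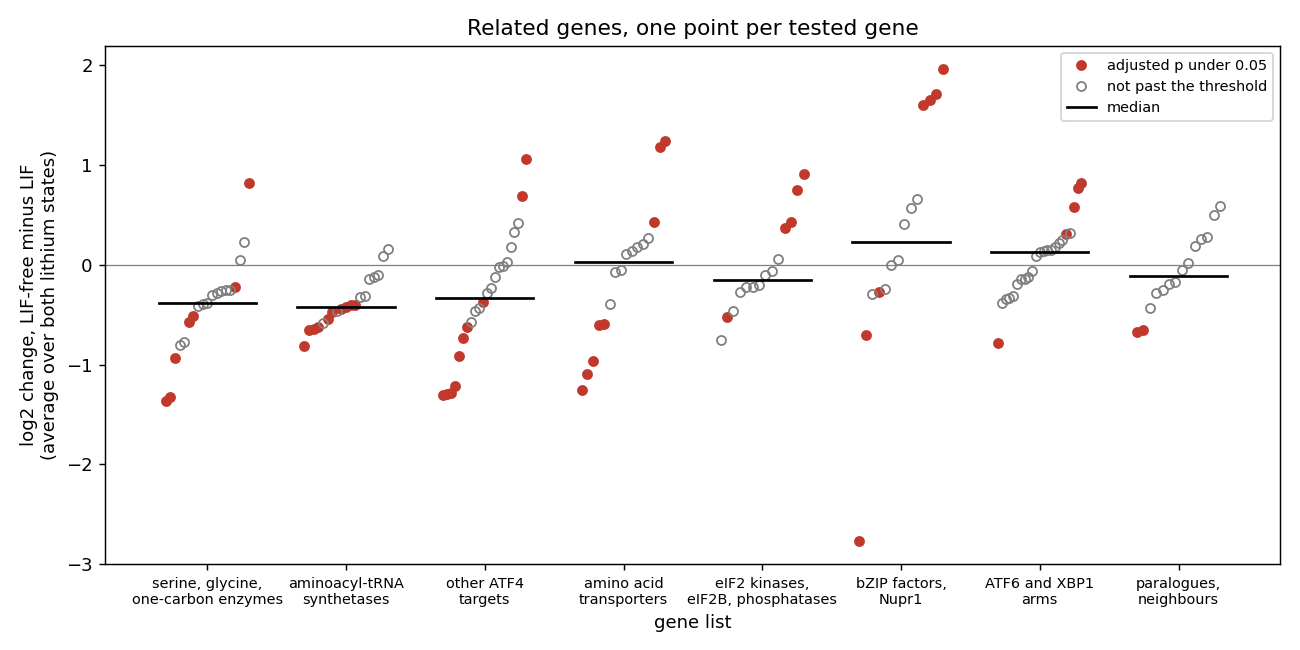
Log2 change with LIF withdrawal, averaged over both lithium states (vertical axis), of each tested gene in 8 related lists (horizontal axis), filled where the adjusted p was under 0.05, with a line at the list median. Medians lay between -0.42 for the tRNA synthetases and 0.23 for the list of bZIP factors and Nupr1, beside 0.03 for all tested genes.

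The arrays of a condition also differed from each other, and the members fell into different patterns there. After the mean of its own condition was taken from each array, the deviations of Atf4 correlated over the 12 arrays with those of Trib3 (r = 0.75), Chac1 (0.73) and Psat1 (0.56). Deviations at least as correlated with Atf4 were found in 0.463%, 0.738% and 4.58% of tested genes. Asns (r = -0.10) and Phgdh (-0.08) did not share that pattern, and Asns and Phgdh varied instead with Ddit3 (0.69 and 0.72). At least as high an r with Ddit3 was found in 2.82% and 2.03% of tested genes. Atf3, which was opposite to Trib3 and Chac1 across conditions (r = -0.77 and -0.83), deviated in the same direction as both within conditions (0.55 and 0.60). At least as high an r with Atf3 within conditions was found in 8.67% and 5.9% of tested genes. These correlations are descriptions, and the points share arrays and their scaling.

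**Figure D4:**
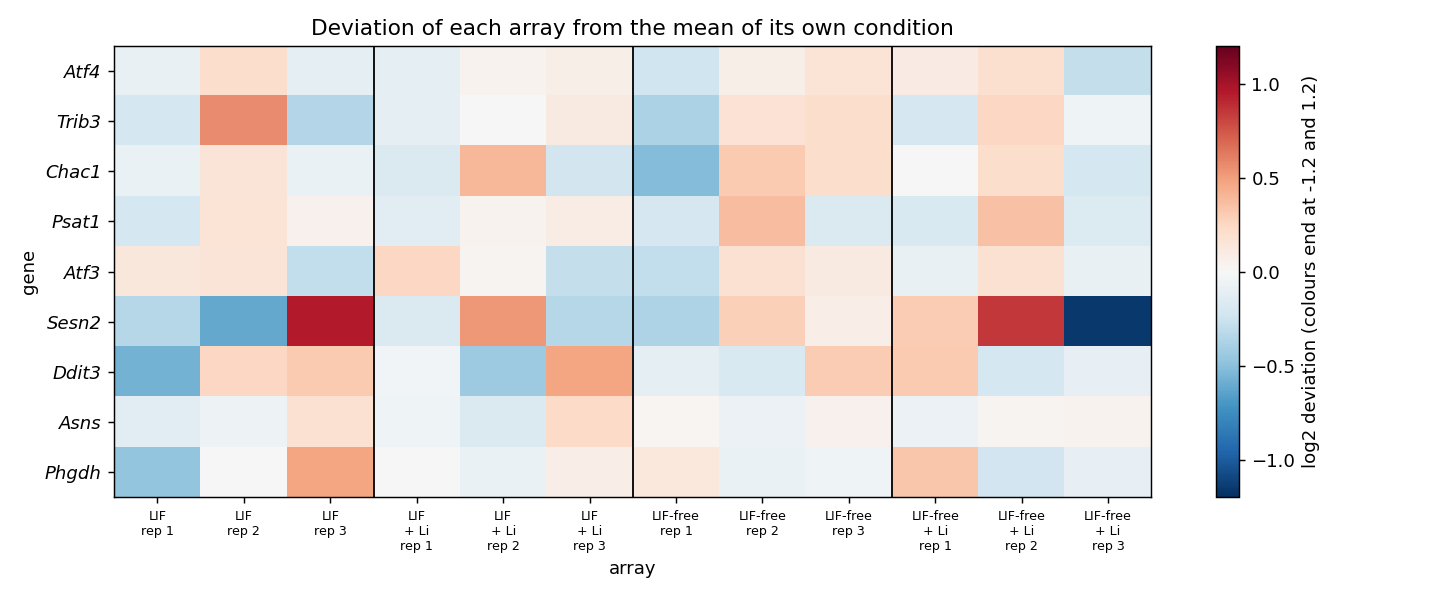
Log2 deviation of each array (columns) from the mean of its own condition for each gene (rows), red above and blue below. On LIF-free replicate 1 all genes except Asns and Phgdh were below their condition mean, and the widest deviations were those of Sesn2, 0.96 on LIF replicate 3 and -1.16 on LIF-free plus lithium replicate 3.

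Cell identity markers moved with LIF as well, while the ranges of array quality measures overlapped between LIF and LIF-free conditions. The marker counts below stand beside 13.5% of all tested genes called lower and 17.4% higher in the average. Of 8 markers of pluripotent cells, 7 fell and 0 rose in the average, and their summed signal ran from 18300 to 28700 with LIF, 20900 to 21700 with LIF plus lithium, 11600 to 14500 without LIF and 9500 to 14100 without LIF but with lithium. All 6 tested trophoblast markers rose (sums 543 to 780, 643 to 708, 1230 to 1660 and 1350 to 1450, in the same order), with Elf5 and Tpbpa too dim to be tested. Of 7 early mesoderm markers 6 rose (sums 92.7 to 227, 88.9 to 153, 321 to 863 and 347 to 771). Eomes and Hand1 belong to the trophoblast and the mesoderm list, and count among the risers and in the sums of both. Of 7 tested fibroblast markers 4 rose and 1 fell (sums 146 to 305, 114 to 194, 307 to 461 and 308 to 550), with Lum, Dcn and Fap too dim. Of 8 tested endoderm markers 2 rose and 1 fell, of 5 neural ones 0 rose and 0 fell, and the sums of both overlapped across conditions. The Gapdh 3 prime to 5 prime ratio was 0.81 to 0.82 with LIF, 0.798 to 0.86 with LIF plus lithium, 0.739 to 0.8 without LIF and 0.748 to 0.802 without LIF but with lithium. The 18S ribosomal RNA control signal was 156 to 2770, 236 to 1100, 1910 to 3390 and 1010 to 3330 in the same order. The actin 3 prime to 5 prime ratio was 1.49 to 1.98, 1.56 to 1.98, 1.45 to 1.7 and 1.5 to 1.67. The part of cell identity and RNA quality in the members' changes was not tested.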

How the data were processed

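The members and gene lists were chosen with earlier results of these data known. The authors deposited a linear MAS5 signal intensity for each probe set, per the submitters' processing notes, which give no version or settings. All arrays share a trimmed mean of 100.

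From 45101 probe sets, 64 controls were dropped. Signals below 1 (0.146% of those tested) were raised to 1 before log2. Testing covered the 27022 probe sets whose mean log2 lay above the 40th percentile, a signal of 7.52. In the annotation 34945 probe sets have 1 symbol, 932 several (never named) and 9160 none. In limma 3.58.1 (R 4.3.3) 1 model held the 4 conditions and 12 arrays, using lmFit and eBayes with trend and 8 residual degrees of freedom. It gave 7 two-sided comparisons: LIF withdrawal and lithium in each state of the other factor and averaged, and the interaction. A permutation of 3 arrays against 3 cannot give a p under 0.1, and the number of arrays limits the precision. The fit was tested on simulated data. Figures used Python 3.11.15 and matplotlib 3.10.9.

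Named were the members, up to 4 called genes per list with the smallest p, Psph, Shmt1, Shmt2 and Gldc, and the 3 genes most correlated with each member. Other list genes were picked with their values known.

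Pairing by the labels' replicate numbers was checked through correlated deviations from condition means. All 3 pairs passed 0.1 between LIF and LIF-free (0.137 to 0.438), which count as paired, and not between LIF plus lithium and LIF-free plus lithium (0.0972 to 0.451). Alternatives are in the closing section.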

Additional observations from a re-analysis of the deposited data

How the results depend on the processing

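The 9 members gave 6 calls without lithium, 7 with lithium and 7 in the average. Without lithium the count was 2 with arrays centred on their medians and 3 with only the arrays of the compared conditions. Leaving out 1 array gave 2 to 7 calls without lithium, 3 to 7 with lithium and 7 in the average. Over all probe sets, 2515, 3368 and 6678 were called. Median centring gave 1560, 1490 and 3690. The replicate block gave 5260 without lithium and 5938 with it, where the numbers were not accepted as pairs. In the average it gave 3 lower calls in place of 1 among the eIF2 kinases, eIF2B subunits and phosphatase regulators, and 2 in place of 1 in the ATF6 and XBP1 arms. Over all tested genes the share called lower was 18.4% in place of 13.5%. For the members the block changed no call other than that of Asns without lithium. Without the intensity trend 1674 were called without lithium, and 1168 with only the compared arrays. Leaving out 1 array gave 1039 to 3950 without lithium, 1360 to 4311 with lithium, 5264 to 7483 in the average, and 0 to 2 for lithium with LIF. Uncalled changes turned sign for 2 members. Sesn2, lithium absent, ranged from -0.606 to 0.18 with 1 array left out (0.18 without LIF replicate 3) and, lithium present, from -0.849 to 0.16 (0.16 without LIF-free plus lithium replicate 3). Phgdh, lithium absent, ranged from -0.446 to 0.0287 (0.0287 without LIF replicate 3) and, lithium present, from -0.213 to 0.0683 (0.0683 and 0.0023 without LIF-free plus lithium replicates 2 and 3), and was 0.013 after quantile normalisation. After median centring Farsb (0.0079, lithium absent), Eif2b2 (-0.0029) and Pdia3 (-0.0200, both lithium present) turned. The cause was not tested. In the average, the alternatives ended member calls in 2 cases, Asns by centring and Ddit3 by its dimmer probe set.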

Other observations

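Genes whose log2 signal followed a member most closely over the 12 arrays were taken from 12208 others with a name. For Psat1 they were the protease inhibitor A2m (r = 0.984), Cth (0.981) and Ing3, a chromatin reader (0.98). For Atf4 they were the snoRNA host Snhg1 (0.942), the bHLH factor Msc (0.934) and Trib3 (0.93). For Trib3 they were Hormad1, a meiotic chromosome protein (0.973), Gpt2 (0.957) and Naa16 (0.949). For Chac1 they were Catsperz, a sperm channel subunit (0.969), Nemp1 (0.942) and Patl1 (0.935). For Asns they were Apela, the apelin receptor ligand (0.989), Prelid2 (0.971) and Dpy30 (0.97). For Ddit3 they were St6galnac6, a sialyltransferase (0.973), Cox6c (0.967) and Nop10 (0.964). For Atf3 they were the annexin Anxa3 (0.987), Rassf8 (0.986) and Gipc2 (0.986). For Sesn2, whose LIF and LIF-free arrays overlapped, they were Hoxa9 (0.874), Srebf1 (0.872) and Spns3 (0.872). For Phgdh they were Sap30l (0.884), Shf (0.874) and Syne4 (0.859). All of these points share arrays and their scaling, and r over the 12 arrays includes the difference between conditions. Within conditions r ranged from 0.473 for Chac1 with Nemp1 to 0.97 for Asns with Apela.

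The letters TGATGNAA were also present in the promoters of some related genes, beside 4.51% of all genes in the table. Among the tRNA synthetases with a promoter in the RefSeq table, 5 of 12 held a match (Aars, Gars, Iars, Tars and Yars), and among the other ATF4 targets 3 of 15 did (Vldlr, Herpud1 and Pck2). Nupr1 and Jdp2 did in the list of 14 genes that holds Nupr1 and the bZIP factors. Of 18 serine and one-carbon enzymes 0 held a match in this window, and of the 19 genes of the ATF6 and XBP1 arms 0 did.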
